A study of Mus musculus with 4 samples.

Results

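A set of 8 genes that carry the activating signal of natural killer (NK) cells was followed in mature splenic NK cells without and with Tcf7. The genes were chosen by name through their Entrez gene numbers, and are 8 of the 26611 genes in the deposited count table. They are the receptor genes Ncr1 (NKp46) and Fcgr3 (CD16), the adaptor genes Fcer1g, Cd247, Tyrobp and Hcst, and the kinase genes Syk and Zap70. RNA was sequenced from 2 Tcf7 knock-out (KO) and 2 wild-type (WT) mice of the C57BL/6 background, each library from its own animal. Tcf7 encodes the transcription factor Tcf-1. All libraries came from spleen cells sorted as TCRbeta-negative and positive for NK1.1, NKp46, CD11b and KLRG1, so both groups were limited to late-stage NK cells bearing NKp46 protein. The age and sex of the mice and the structure of the knock-out allele are not given in the labels.

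NKp46 and CD16 have short tails and signal through partner chains that carry an immunoreceptor tyrosine-based activation motif (ITAM). Fcer1g encodes the Fc receptor gamma chain and Cd247 the zeta chain, and both serve NKp46, while mouse CD16, the receptor for antibody-coated targets, uses the gamma chain. Tyrobp encodes DAP12, the ITAM adaptor of activating Ly49 receptors, and Hcst encodes DAP10, which couples NKG2D to phosphoinositide 3-kinase through another tyrosine motif. Once Src family kinases phosphorylate both tyrosines of an ITAM, the kinases Syk and Zap70 bind there and pass the signal on.

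The stretches of coding sequence that hold these motifs are shown because the adaptors differ in the number and kind of motif. They were found in GENCODE M21 transcripts of the mm10 assembly by reading each coding sequence for a tyrosine codon, any 2 codons, a leucine or isoleucine codon, a gap of 6 to 12 codons, and the same pattern again. For Hcst the search was for a tyrosine, any codon, an asparagine and a methionine codon. Capitals mark the codons that define the motif.
Fcer1g: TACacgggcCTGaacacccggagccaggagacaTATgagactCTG
Cd247 motif 1: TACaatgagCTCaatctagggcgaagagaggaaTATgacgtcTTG
Cd247 motif 2: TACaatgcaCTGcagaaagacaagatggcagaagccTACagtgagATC
Cd247 motif 3: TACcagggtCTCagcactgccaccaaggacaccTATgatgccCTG
Tyrobp: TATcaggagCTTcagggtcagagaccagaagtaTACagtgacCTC
Hcst: TACatcAACATG
The Fcer1g stretch lies on the minus strand within chr1:171229889-171230072 and the Tyrobp stretch on the plus strand within chr7:30415670-30417382. The Cd247 stretches lie on the plus strand within chr1:165856451-165857454, chr1:165858473-165859260 and chr1:165859819-165861042, and each of these ITAM stretches spans an intron. The Hcst stretch lies in 1 exon on the minus strand at chr7:30417821-30417832. Cd247 thus held 3 ITAMs with 6 motif tyrosines in 1 chain, Fcer1g and Tyrobp 1 ITAM with 2 tyrosines each, and Hcst 1 tyrosine and no ITAM.

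The libraries held 28254693 and 37384979 counts (KO) and 31860505 and 40175537 counts (WT). Levels are given as CPM, read counts relative to the library total scaled with edgeR's TMM factors, or as RPKM, the same divided by the deposited gene length in kilobases, where genes are compared with each other. Tcf7, the targeted gene, stood at 11.2 and 25.0 CPM in KO and 89.5 and 79.1 CPM in WT libraries. All 9 NK cell markers, Ncr1 among them, were detected, summing to 29132 to 36484 CPM in KO and 29061 to 35178 CPM in WT. Without Gzma, the highest of them, the sums were 16002 and 17243 CPM in KO and 17638 and 16735 CPM in WT. The libraries also differed by the number the labels give them: of 12723 tested genes, 34.6% had both libraries numbered 2 above both numbered 1 and 33.2% had the reverse, and what the number stands for is not given in the labels. Within this bulk RNA, fewer cells expressing a gene and less RNA per cell cannot be told apart.

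Of the 8 genes, Zap70 differed most between Tcf7 KO and WT NK cells. It averaged 137 ± 5.82 CPM in KO and 267 ± 17.5 CPM in WT (SD, n = 2 each), and the other 7 genes had log2 fold changes between -0.20 and 0.32. edgeR's quasi-likelihood test called 0 of the 8 members at an adjusted p under 0.05 over all genes, where it called 0% of the 12723 tested genes. Tcf7 itself did not pass that threshold in edgeR (log2 fold change -2.22, edgeR unadjusted p = 0.00607), while DESeq2 called it (DESeq2 adjusted p = 0.00216). The edgeR test thus missed even the targeted gene, so a gene that was not called is not shown to be unchanged. At an unadjusted p under 0.05 edgeR counted 1 member, Zap70, on the lower side, where 145 tested genes (1.14%) were lower and 216 (1.7%) higher, together 2.84%. DESeq2 and limma voom also called 0 members at an adjusted p under 0.05, where DESeq2 called 0.558% of tested genes and voom 0%. At an unadjusted p under 0.05 both counted Zap70 alone among the members, where DESeq2 counted 3.12% and voom 2.74% of tested genes. The fold change was below 0 for 6 of the 8 members and for 51.8% of tested genes. The median log2 fold change was -0.06 over the members and -0.01 over all tested genes. The KO and WT libraries did not overlap for 2 members, which was also so for 21.2% of tested genes. Zap70 lay below in KO, like 11.6% of tested genes, and Cd247 above, like 9.64%. By library number, Ncr1, Fcgr3, Fcer1g, Tyrobp and Hcst had both libraries numbered 1 above both numbered 2, and Syk had the reverse.

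**Figure D1:**
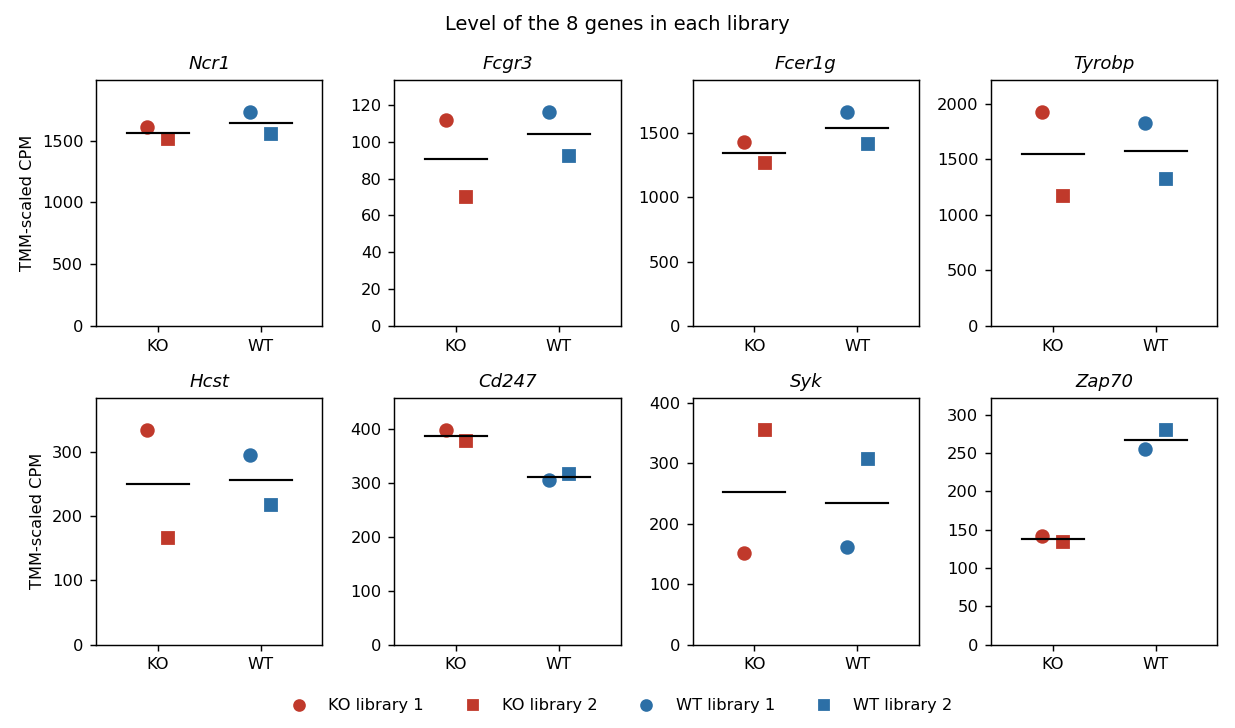
TMM-scaled CPM of the 8 genes, 1 panel each with its own axis from 0. Points are libraries (circles numbered 1, squares numbered 2) and bars are group means, KO left of WT. Zap70 lies at 133 to 142 CPM in KO and 255 to 279 CPM in WT. Ncr1, Fcgr3, Fcer1g, Tyrobp and Hcst have both libraries numbered 1 above both numbered 2, and Syk has the reverse.

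**Figure D2:**
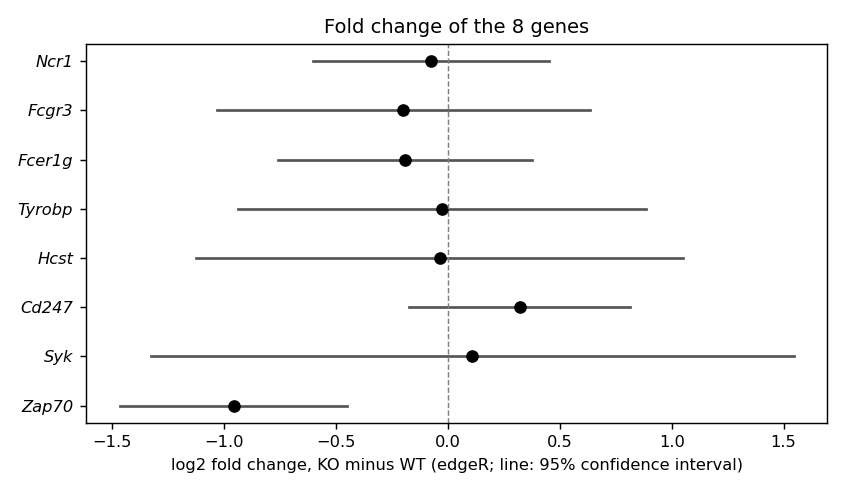
Log2 fold change of KO over WT for each gene from edgeR (points) with its 95% confidence interval (lines). The interval for Zap70 runs from -1.47 to -0.45 and those of the other 7 genes include 0, before adjustment for the number of genes tested.

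Ncr1 (Entrez gene 17086, chr7:4337715-4345184) encodes NKp46, an NK cell receptor that binds ligands on tumour and infected cells. It was counted 47248 and 54435 times in the KO libraries and 56301 and 61136 times in the WT libraries. Its levels were 1611 and 1510 CPM in KO and 1732 and 1557 CPM in WT, and the groups overlapped, with WT library 1 highest. The mean was 1560 ± 71.5 CPM in KO and 1644 ± 124 CPM in WT (SD, n = 2 each). On the log2 scale KO differed from WT by -0.08 (SE 0.20, 95% interval -0.60 to 0.45, edgeR adjusted p = 1.00), and by 0.0036 without KO library 2. The sort took cells bearing NKp46 protein, so cells that lack it were outside the measurement in both groups.

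Fcgr3 (Entrez gene 14131, chr1:171051169-171065915) encodes CD16, the receptor through which NK cells recognise antibody-coated cells. It stood at 112 and 69.9 CPM in KO and 116 and 92.5 CPM in WT. Both libraries numbered 1 lay above both numbered 2, and the groups overlapped. The log2 fold change was -0.20 (SE 0.31, 95% interval -1.03 to 0.63, edgeR adjusted p = 1.00), and it was 0.13 without KO library 2. Of 1733 different stretches of 75 bases in Fcgr3 transcripts, 94 (5.42%) also occur in transcripts of Fcgr2b, the inhibitory Fc receptor. A read of that length from such a stretch could come from either gene. Fcgr2b itself stood at 33.4 and 42.2 CPM in KO and 35.5 and 67.0 CPM in WT (log2 fold change -0.44, SE 0.38). Fcgr4, a further activating Fc receptor gene found mainly on myeloid cells, stood at 3.00 and 0.555 CPM in KO and 1.54 and 0.560 CPM in WT.

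Among the adaptors, Fcer1g (Entrez gene 14127, chr1:171229572-171234349) had 1430 and 1264 CPM in KO and 1662 and 1413 CPM in WT. The gene encodes the gamma chain, whose single ITAM is printed above. KO library 1 lay between the WT libraries, and the log2 fold change was -0.19 (SE 0.21, 95% interval -0.76 to 0.37, edgeR adjusted p = 1.00). Cd247 (Entrez gene 12503, chr1:165779952-165871153), the zeta chain gene with the 3 ITAMs, had 397 and 377 CPM in KO and 304 and 316 CPM in WT. Both KO libraries lay above both WT libraries, and each pair was close, with means of 387 ± 13.9 CPM in KO and 310 ± 8.08 CPM in WT (SD, n = 2 each). The log2 fold change of 0.32 (SE 0.19, 95% interval -0.17 to 0.81) did not pass (edgeR unadjusted p = 0.153, adjusted p = 1.00). Cd247 lies over genes of either strand, Pou2f1 among them, and 53.5% of the different 75-base stretches in its transcripts also occur, on one strand or the other, in Pou2f1 or Gm16565. Pou2f1, a transcription factor gene, had 26.1 and 45.1 CPM in KO and 40.0 and 58.5 CPM in WT (log2 fold change -0.47, SE 0.38). Whether counting used the strand is not given in the sources used here.

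Tyrobp (Entrez gene 22177, chr7:30413782-30417582), the DAP12 gene, had 1928 and 1170 CPM in KO and 1829 and 1328 CPM in WT. Hcst (Entrez gene 23900, chr7:30417712-30419854), the DAP10 gene, had 334 and 166 CPM in KO and 295 and 217 CPM in WT. The genes are neighbours that end towards each other, on the plus and minus strand, with 126 bases between them in GENCODE. For both, the libraries numbered 1 lay above those numbered 2, and the KO libraries were the highest and the lowest of the 4. The log2 fold changes were -0.03 for Tyrobp (SE 0.34, 95% interval -0.94 to 0.88) and -0.04 for Hcst (SE 0.41, 95% interval -1.12 to 1.05), each with an edgeR adjusted p of 1.00. The sign turned with the library left out, to 0.32 for Tyrobp and 0.41 for Hcst without KO library 2, and to 0.22 and 0.20 without WT library 1.

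The kinases differed from each other in pattern. Syk (Entrez gene 20963, chr13:52582610-52648792), which encodes a kinase widely used by ITAM receptors, had 152 and 355 CPM in KO and 162 and 307 CPM in WT. The libraries numbered 2 stood highest in both genotypes, so that the spread within a genotype (KO SD 143 CPM, WT SD 103 CPM) was larger than the difference between their means (253 and 235 CPM). The log2 fold change was 0.11 (SE 0.54, 95% interval -1.33 to 1.55, edgeR adjusted p = 1.00). Leaving out KO library 2 turned it to -0.60, and leaving out WT library 1 to -0.28.

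Zap70 (Entrez gene 22637, chr1:36761798-36782821), the relative of Syk best known from T cell receptor signalling, was counted 4152 and 4807 times in KO libraries and 8278 and 10975 times in WT libraries. Its levels were 142 and 133 CPM in KO and 255 and 279 CPM in WT. The KO libraries were close to each other and well below the WT libraries, and the levels did not follow the library number. The gene overlaps Gm18828, an annotated pseudogene on the opposite strand. The log2 fold change was -0.96 (SE 0.19, 95% interval -1.47 to -0.45), that is a KO level 0.515 times the WT level. The unadjusted edgeR p was 0.00543 and the edgeR adjusted p over all genes 1.00, while DESeq2 gave an adjusted p of 0.153. Of all 12723 tested genes 294, Zap70 included, had a log2 fold change as low as that of Zap70 or lower, and of the 4152 with a mean of at least 50 CPM 13 did. With a library left out the log2 fold change was between -1.03 and -0.87, where each such fit leaves 1 library in a group.

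Tcf-1 belongs to the TCF/LEF factors, which bind DNA around the core CTTTGA. The promoter window of Zap70 that holds this core is shown, with the match in capitals. It runs from 250 bases before to 50 after a RefSeq start on GRCm38.p6, plus strand, chr1:36761548-36761847.
Zap70 promoter: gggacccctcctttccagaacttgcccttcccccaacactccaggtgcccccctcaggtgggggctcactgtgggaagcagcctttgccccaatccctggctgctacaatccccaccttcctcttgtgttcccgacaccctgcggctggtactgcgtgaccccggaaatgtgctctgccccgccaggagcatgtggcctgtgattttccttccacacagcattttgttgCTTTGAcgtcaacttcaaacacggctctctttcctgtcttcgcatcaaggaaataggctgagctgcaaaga
Of 12 promoter windows listed for 7 members, 3 held the core on either strand (reverse complement TCAAAG), 1 each for Zap70, Cd247 and Syk. The further Zap70 windows, at chr1:36764265-36764564 and chr1:36778734-36779033, held no match. Of all 32851 windows 16.0% held it. A match is a description of the sequence and not a binding site, and windows without it say nothing of the factor elsewhere. Tyrobp had no entry.

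Compared per gene length, Tyrobp, Fcer1g, Hcst and Ncr1 stood far above the kinases, Fcgr3 and Cd247. In KO cells the order was Tyrobp (2723 ± 942 RPKM), Fcer1g (2047 ± 179), Ncr1 (1067 ± 48.9), Hcst (566 ± 269), Cd247 (84.0 ± 3.02), Fcgr3 (67.1 ± 21.9), Zap70 (63.1 ± 2.67) and Syk (48.0 ± 27.2 RPKM). In WT cells it was Tyrobp (2774 ± 623 RPKM), Fcer1g (2337 ± 267), Ncr1 (1124 ± 84.9), Hcst (580 ± 125), Zap70 (123 ± 8.02), Fcgr3 (77.1 ± 12.4), Cd247 (67.3 ± 1.76) and Syk (44.5 ± 19.5 RPKM; SD, n = 2 each). By RPKM, Tyrobp ranked 13 of the 12723 tested genes in both genotypes, and Zap70 ranked 1477 in KO and 664 in WT. The library values of Tyrobp and Fcer1g overlapped in both genotypes. In KO cells those of Cd247 and Fcgr3, of Fcgr3 and Zap70, and of Zap70 and Syk also overlapped, and in WT cells those of Fcgr3 and Cd247. The deposited length of Cd247, 4604 bases, is longer than the median of its protein-coding transcripts, 2264.5 bases. Per transcript length Cd247 averaged 171 RPKM in KO and 137 RPKM in WT. For Zap70 these lengths are 2180 and 1349.5 bases. Per transcript length Zap70 averaged 102 RPKM in KO and 198 RPKM in WT, and its KO values then lay above those of Fcgr3.

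**Figure D3:**
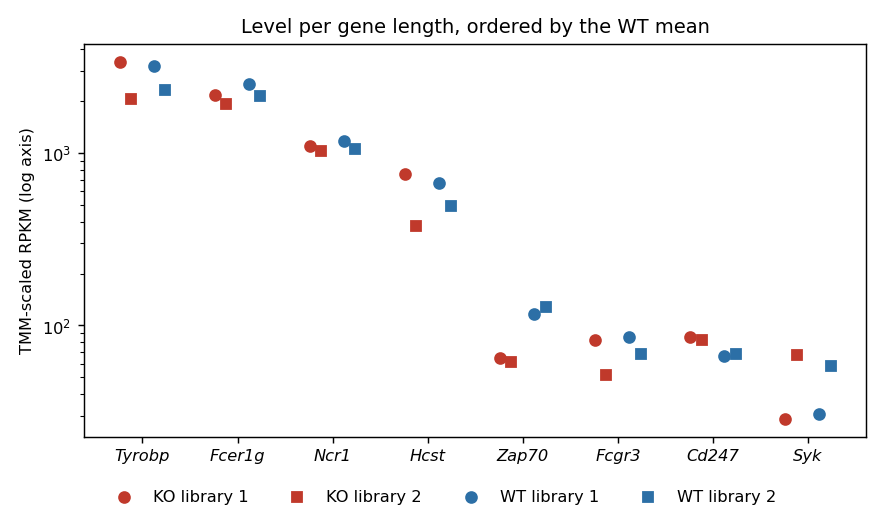
TMM-scaled RPKM (log axis) of the 8 genes in each library, ordered by the WT mean, with KO points left of WT points. Tyrobp, Fcer1g, Ncr1 and Hcst lie at 376 RPKM or more in every library and the other 4 genes at 128 RPKM or less. Zap70 stands above Fcgr3 in both WT libraries and between the values of Fcgr3 in KO libraries.

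Ratios between members were also taken within each library, where no scaling between libraries enters. The ratio of Syk to Zap70, per deposited length, was 0.443 and 1.10 in KO and 0.263 and 0.455 in WT. By that length Syk exceeded Zap70 in KO library 2 and in no other library. The KO minus WT difference of this ratio was 1.01 on the log2 scale, with KO library 1 just under WT library 2. In KO library 2, which gene stood higher depended on the length used. By group mean, Zap70 stood above Syk in both genotypes with either length. Per median transcript length, Syk averaged 49.4 RPKM and Zap70 102 RPKM in KO, and 45.8 and 198 RPKM in WT. The ratio of Fcer1g to Cd247, the partner chains of NKp46, was 25.2 and 23.5 in KO and 38.2 and 31.3 in WT, a difference of -0.51 on the log2 scale with no overlap. Ncr1 relative to Fcer1g plus Cd247 was 0.487 and 0.515 in KO and 0.457 and 0.480 in WT (log2 difference 0.10, no overlap). Per length this sum was mostly Fcer1g, and as raw counts without length the log2 difference was 0.017. Tyrobp over Hcst (log2 difference 0.05), Ncr1 over Fcgr3 (0.16) and Fcgr3 over Fcer1g plus Cd247 (-0.06) overlapped between the genotypes. Leaving out KO library 1, KO library 2 or WT library 1 moved the difference for Syk over Zap70 to 1.67, 0.36 or 0.62. Without KO library 2 the sign turned for Tyrobp over Hcst (-0.09), Ncr1 over Fcgr3 (-0.14) and Fcgr3 over Fcer1g plus Cd247 (0.19). With 2 libraries a group, a two-sided exact permutation test cannot give a p under 0.333, which both ratios without overlap reached, and over the 6 ratios every adjusted p was 1.00.

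**Figure D4:**
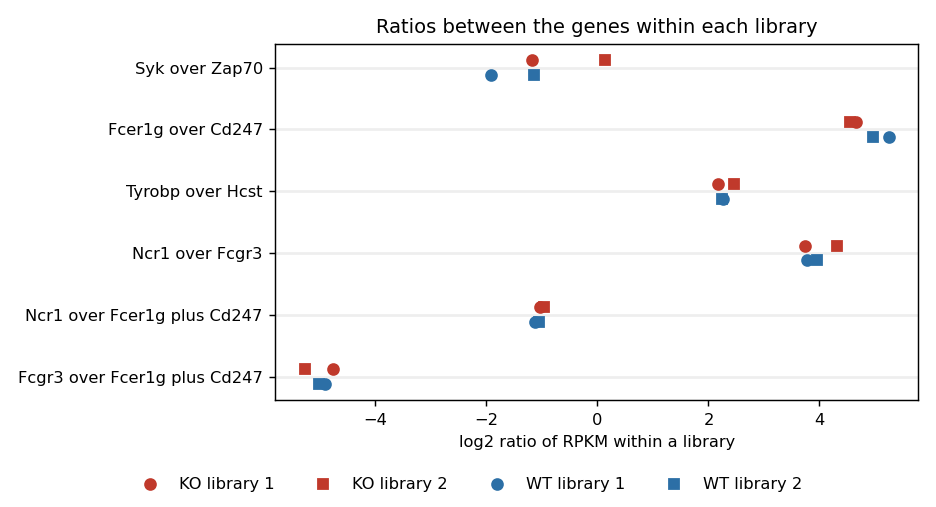
Log2 ratio of RPKM between members within each library (circles numbered 1, squares numbered 2, KO above WT in each row). Fcer1g over Cd247 lies at 4.55 to 4.66 in KO and 4.97 to 5.26 in WT, and the other ratios differ less or spread more within a genotype.

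The pattern over the 4 libraries was compared with all 4151 other tested genes of at least 50 CPM, by the root mean square difference of log2 CPM centred on each gene's mean. The genes most like Ncr1 were Srd5a3 (0.0030), Marchf8 (0.0057) and Cdk9 (0.013). Those most like Fcgr3 were Rgs2 (0.024), Rap2a (0.046) and Mpnd (0.047). Among members, Ncr1 and Fcer1g lay closest together (0.071), followed by Fcgr3 and Tyrobp (0.10). With 4 libraries these distances only describe which genes had alike values.

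The wider pathway was covered by lists of partner receptors, Src family kinases, downstream enzymes, negative regulators and other Fc receptors or ITAM chains. edgeR called 0 members of each list in either direction at an adjusted p under 0.05, as did DESeq2, which called 0.558% of all tested genes. At an unadjusted p under 0.05 edgeR counted Klra4 and Fgr, 2 of the 93 tested genes of these lists (2.15%), where it counted 2.84% of all tested genes. The median log2 fold changes were 0.16 over 12 tested partner receptors, -0.05 over 11 Src family kinases and regulators, -0.04 over 40 downstream genes, -0.04 over 20 negative regulators and 0.19 over 10 Fc receptors and ITAM chains, against -0.01 over all tested genes.

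Of the partner receptors, Klra4, which encodes the DAP12-coupled activating receptor Ly49D, had 458 and 211 CPM in KO and 1274 and 603 CPM in WT. The higher KO library lay below the lower WT library, which was also so for 11.6% of tested genes. The log2 fold change was -1.49 (SE 0.56, edgeR unadjusted p = 0.0498, adjusted p = 1.00), and reads can be shared with near-identical Ly49 genes. Klrk1, which encodes NKG2D, the receptor served by DAP10, stood at 1548 and 1319 CPM in KO and 1499 and 1331 CPM in WT (log2 fold change 0.02). Klrb1c, which encodes NK1.1, a receptor coupled to the gamma chain, had 4485 and 3837 CPM in KO and 4767 and 3595 CPM in WT. Klrd1, which encodes CD94, the partner of NKG2 receptors, had a log2 fold change of 0.18 (SE 0.38), and the weakly expressed Cd300lb, another DAP12-coupled receptor gene, one of 1.40 (SE 0.98).

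Of the Src family kinases, which phosphorylate ITAMs, Fgr had 72.2 and 63.7 CPM in KO and 41.4 and 28.4 CPM in WT. Both KO libraries lay above both WT libraries (log2 fold change 0.96, SE 0.28, edgeR unadjusted p = 0.0210, adjusted p = 1.00). Lck, the kinase of this list with the highest mean CPM, had 855 and 999 CPM in KO and 1043 and 1073 CPM in WT (log2 fold change -0.19). Fyn had 596 and 628 CPM in KO and 706 and 760 CPM in WT (-0.26, SE 0.19). Lck and Fyn were lower in both KO libraries than in both WT libraries, like 11.6% of tested genes, and neither passed. Of all tested genes 9.64% had both KO libraries above both WT libraries, as Fgr did. Ptprc, which encodes the phosphatase CD45 that activates these kinases, had a log2 fold change of -0.23 (SE 0.36), and Yes1 one of 0.66 (SE 0.46).

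Downstream of the kinases, Wipf1, an actin regulator gene, had a log2 fold change of -0.09 (SE 0.46). Pik3cd, a phosphoinositide 3-kinase subunit gene, had one of -0.07 (SE 0.46). The smallest unadjusted p-values in that list belonged to Sh2d1b2 (edgeR log2 fold change -1.94, SE 0.80, under 1.1 CPM in all libraries) and the scaffold gene Gab2 (-0.78, SE 0.42). Among negative regulators Dok2 (-0.06), Dgkz (-0.06) and Inpp5d (-0.01), which encodes the phosphatase SHIP1, had the highest mean CPM. Inpp5d had 174 and 577 CPM in KO and 251 and 504 CPM in WT, so that, as for Syk, the libraries numbered 2 were highest in both genotypes. Cish, a cytokine signalling inhibitor gene, had a log2 fold change of 1.10 (SE 0.71) and Inppl1, which encodes SHIP2, one of -0.48 (SE 0.38). In the list of other Fc receptors and ITAM chains, the chains of the B and T cell receptors were low, Cd79b at 7.88 and 2.25 CPM in KO and 5.75 and 4.10 CPM in WT, and Cd3g with a log2 fold change of 0.34 (SE 0.38). Fcrla had one of 0.57 (SE 0.57).

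**Figure D5:**
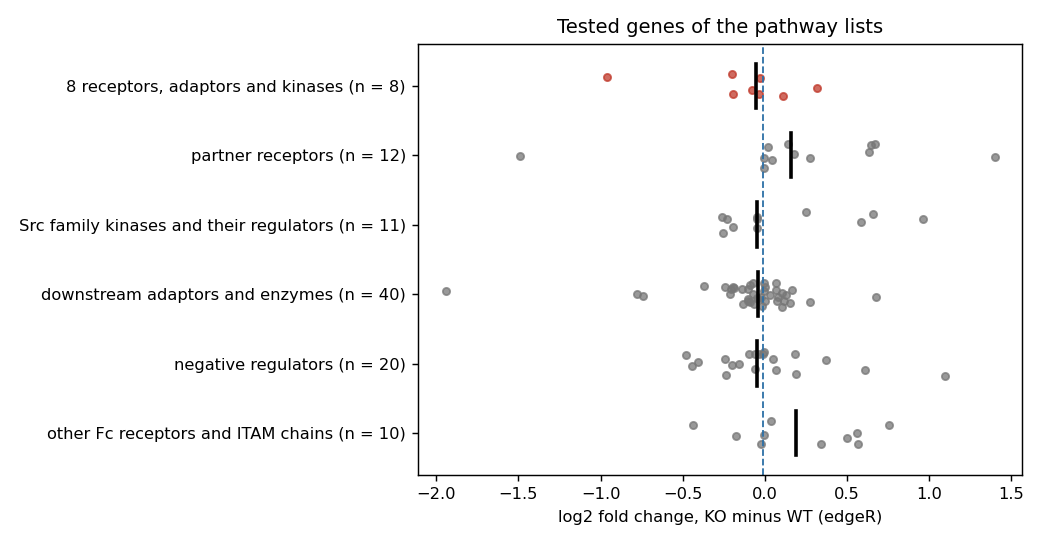
Log2 fold change of KO over WT for every tested gene of each list (points, shifted vertically at random for legibility), with the list median (black bar) and the median of all tested genes (dashed line, -0.01). Zap70 is the lowest of the 8 genes at -0.96, and the list medians lie between -0.06 and 0.19.

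Several of the 8 genes are also used by other blood cells, so markers of those cells were read in the same libraries. Fcer1g, Tyrobp, Fcgr3 and Syk are expressed by myeloid cells. The 12 neutrophil and granulocyte precursor markers summed to 371 and 76.8 CPM in KO and 32.7 and 1.91 CPM in WT, with all 12 higher on average in KO and Elane, Prtn3, Ctsg and Ltf at 0 in WT library 2. The 13 monocyte and macrophage markers summed to 923 and 463 CPM in KO and 874 and 413 CPM in WT, 12 of them higher on average in KO. Of these sums Ccr2 alone held 566 and 415 CPM in KO and 729 and 378 CPM in WT. Without Ccr2 the sums were 357 and 47.3 CPM in KO and 145 and 35.3 CPM in WT. Lyz2 stood at 258 and 18.6 CPM in KO and 92.7 and 3.31 CPM in WT. Csf1r, the macrophage growth factor receptor gene, stood at 24.1 and 6.46 CPM in KO and 14.0 and 7.64 CPM in WT. The 7 dendritic cell markers summed to 81.3 and 17.9 CPM in KO and 45.9 and 16.5 CPM in WT.

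Zap70 and Cd247 are T cell genes as well, and Syk serves B cells. The 8 T cell markers summed to 104 and 42.2 CPM in KO and 15.6 and 14.2 CPM in WT, with 3 of the 8 higher on average in KO. Of these sums Trac held 94.0 and 36.1 CPM in KO and 5.88 and 8.30 CPM in WT. Without Trac the T cell sums were 10.1 and 6.13 CPM in KO and 9.72 and 5.88 CPM in WT. Cd3e stood at 0.239 to 0.610 CPM in KO and 0.400 to 0.458 CPM in WT, and Cd3g at 3.33 to 5.42 CPM in KO and 3.29 to 3.62 CPM in WT. The 7 B cell markers summed to 447 and 221 CPM in KO and 243 and 169 CPM in WT, with 5 of the 7 higher on average in KO. Mast cell and basophil markers (5) summed to at most 5.83 CPM and the 7 erythroid and platelet markers in the table to 191 and 121 CPM in KO and 36.5 and 27.8 CPM in WT. The part of any of these cells in the members' differences was not tested.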

How the data were processed

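The authors deposited whole-number read counts per Entrez gene with a gene length, per the file headers. The submitters' processing notes name featureCounts and the mm10 build, and the sources used here give no version, aligner or strand setting. The series table and the 4 single-sample files held the same counts. Libraries differed pairwise by a chi-square per degree of freedom of 34.6 to 266, so none was a copy. Symbols and gene positions came from a RefSeq table of GRCm38.p6 (95.0% of gene numbers matched), promoters from RefSeq and coding stretches from GENCODE M21.

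The filterByExpr function of edgeR (minimum count 10) left 12723 genes, all 8 members among them. KO was tested against WT with edgeR 4.0.16 (R 4.3.3), by a two-sided quasi-likelihood F-test with TMM scaling, a robust fit and genotype as the only term. P-values were adjusted over all tested genes by Benjamini-Hochberg, with a threshold of 0.05. SE and 95% intervals come from the fold change, the F statistic and its degrees of freedom. DESeq2 1.42.0, limma 3.58.1 (voom), other scalings and filters, the replicate number as a block and each library left out were alternatives. The tests were tried on simulated counts. By the full library totals and before TMM scaling, a level of 1 CPM stood for 28.3 to 40.2 counts, which sets the counting error of low genes.

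Members and lists were chosen with earlier results of these data known. All members were named, and from each list the 3 tested genes of highest mean CPM and the 2 with the smallest unadjusted p, except 1 gene that is not reported here. Pou2f1 and the marker genes singled out were chosen after their values were seen. With 2 mice a group, p-values rest on spread shared across genes.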

Additional observations from a re-analysis of the deposited data

How the results depend on the processing

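No member was called except with the replicate number as a block, where Zap70 passed (log2 fold change -0.96, edgeR adjusted p = 0.00473), so 1 member was called. That fit called 221 genes in all (1.74%), and 3 in the pathway lists (Klra4, Fgr and Cish). The libraries share only a number: deviations of same-numbered libraries from their group means correlated over genes (r = 0.728), but nothing in the labels says that the number pairs mice. Among all genes, edgeR called 35 when low counts were not filtered and DESeq2 called 71. Leaving out a library gave 0 to 53 calls in edgeR and 34 to 74 in DESeq2 (52 without KO library 1, 50 without WT library 1), where these DESeq2 fits were added after seeing the data. The members' median log2 fold change was -0.36 to 0.068 with a library left out (-0.34 in DESeq2 without KO library 1), and 0 or 1 gene of the pathway lists was called, Klra4 by DESeq2 without KO library 1. Log2 fold changes in edgeR with a library left out were -0.13 to 0.0036 for Ncr1, -0.58 to 0.13 for Fcgr3, -0.43 to 0.32 for Tyrobp, -0.63 to 0.41 for Hcst and -0.60 to 0.66 for Syk. In DESeq2 the sign also turned without KO library 2 for Fcgr3 (0.12), Tyrobp (0.31), Hcst (0.40) and Syk (-0.61), and without WT library 1 for Ncr1 (0.030), Fcgr3 (2.3e-04), Tyrobp (0.25), Hcst (0.23) and Syk (-0.25). Among genes of at least 5 CPM in 2 libraries those of Tyrobp (0.0063) and Hcst (2.6e-04) lay just above 0. Ncr1 over Fcer1g plus Cd247 differed by 0.017 on the log2 scale as raw counts without length. With transcript lengths in place of deposited gene lengths, also added later, 2 members changed rank in each genotype. Library size alone moved no rank. The cause of these changes was not tested.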
